A study of Populus ussuriensis with 12 samples.

Results

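Stomata are the pores through which a leaf loses water, and 99 of the 35747 genes in the table of the poplar Populus ussuriensis carry a description from the pathway that places them, or from the trihelix family of transcription factors. They were chosen by their UniProt description alone: EPIDERMAL PATTERNING FACTOR, ERECTA, ERL1, ERL2, TOO MANY MOUTHS (TMM), SPEECHLESS, MUTE, FAMA, SCREAM, INDUCER OF CBF EXPRESSION, YODA, SBT1.2 or trihelix transcription factor, with descriptions that open with "Transcription factor bHLH" left out. The rule uses no measured value, although it was set with earlier results of these data known. The 99 genes comprised 13 peptides, 12 receptors, 5 proteases, 19 kinases, 4 basic helix-loop-helix (bHLH) factors and 46 trihelix factors. A description is the best protein match and not a proof of function, so the E-value of the match, which is smaller for a better match, is given for some genes. Genes without a printed E-value can also rest on weak matches, such as the YODA-described Potri.008G158600 (4e-21) and Potri.010G081400 (3e-20). No gene kept by the rule carried a SPEECHLESS, EPF2 or INDUCER OF CBF EXPRESSION description. SPEECHLESS and EPF2 are therefore not analysed here.

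Leaf RNA was sequenced from wild-type plants (WT) and from plants of the label Pu-miR172d-OE (OE), which overexpress a poplar microRNA of the miR172 type. Plants of each genotype were either well watered or had water withheld for 4 days, which gave 4 groups of 3 libraries: WT watered, WT drought, OE watered and OE drought. All plants were 70 days old, grown in soil, and the tissue was leaves 7 and 8 counted from the shoot tip. Watered libraries are numbered 1 to 3 and drought libraries 4 to 6, and values are listed in that order below. The labels give neither the promoter nor the number of transgenic lines, and they do not say whether the 3 libraries of a group came from separate plants, so the p-values measure the spread between these libraries, which may be technical.

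In Arabidopsis, secreted peptides of the EPF family bind receptor kinases of the ERECTA family together with the receptor-like protein TMM. Some of these peptides, such as EPF1, hold back stomata, whereas EPFL9 (stomagen), which is made in the inner leaf tissue, promotes them. The receptors act through the kinase YODA and a mitogen-activated protein kinase cascade that restrains SPEECHLESS, the first of the bHLH factors SPEECHLESS, MUTE and FAMA, which drive entry into the lineage, the guard mother cell and the final guard cell, each with a SCREAM partner. The subtilisin-like protease SDD1 (described as SBT1.2) limits stomatal number, and the trihelix factor GTL1 represses its gene and is itself lowered by water deficit.

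Positions are those of the annotated table, whose genome build was not stated, and near-identical or overlapping genes may share reads. The libraries held 9682111 to 12131416 fragments, a depth that the stepwise low values of FPKM (fragments scaled by gene length and library size) gave back. Watering separated the libraries on the first principal component (77.3% of the variance), and OE drought libraries lay farther along it (131.8 to 173.1) than WT drought libraries (71.9 to 82.0). WT drought replicate 6 correlated with WT drought replicates 4 and 5 at 0.9224 and 0.9291. With OE drought replicates 4, 5 and 6 it correlated at 0.9226, 0.8589 and 0.9322. For WT drought replicate 5 the correlations with these OE libraries were 0.9132, 0.8706 and 0.9207, and for replicate 4 they were 0.8922, 0.8432 and 0.9015. On the first component WT drought replicate 6 lay farthest from the OE drought libraries within its group (71.9). Within OE drought, replicates 4 and 6 correlated at 0.9921, and replicate 5 correlated with them at 0.9683 and 0.9558. OE drought replicate 5 also lay farthest along the first component (173.1). The leaf label held in the watered libraries, where 33 genes of the mesophyll list (chlorophyll a-b binding proteins and Rubisco) summed to 43480 to 53000 FPKM in WT and 31280 to 43640 in OE. In drought this sum was 2541 to 5271 FPKM in WT and 282.7 to 1460 in OE. In whole leaves, fewer cells of a type and less RNA per cell cannot be told apart.

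A gene was tested where at least 3 of the 12 libraries reached 1 FPKM, which 66 of the 99 genes did. The other 33 were too weak, and a gene that passed because of the groups where it is high was more likely to differ. Each change is a log2 difference of group means ± SE after 1 was added to the FPKM, so that weak genes show less than their ratio. A gene is said to rise, fall or differ where limma, with Benjamini-Hochberg adjustment across the 25373 tested genes, gave p below 0.05. A value in parentheses after an alternative setting is the adjusted p under that setting, and the lowest and highest adjusted p over all alternatives follow. In WT drought 18 of the 66 genes rose and 15 fell, where 33.9% of all tested genes rose and 21.6% fell. In OE drought 23 rose and 28 fell, against 27.7% and 34.9% of all tested genes. As a whole the 66 genes moved both ways, as did all tested genes. Where libraries of different groups are described as not overlapping, the share of all tested genes without overlap was not computed. Of the tested peptides, receptors, protease and bHLH factors, 0 rose in either genotype, and of the tested kinases described as YODA, 0 fell, with both scalings tried. The filter has a part in the first count, since several of those genes passed it through their watered libraries, while weak genes that were higher in drought did not pass it. Without the filter 1 peptide and 1 receptor rose in WT and 2 peptides and 1 protease rose in OE, still with 0 YODA-described genes falling. That fit gave 21 higher and 16 lower members in WT and 26 and 28 in OE, where 24.5% and 17.1% of all genes rose and fell in WT and 21.8% and 26.9% in OE. The median change of all tested genes was 0.24 in WT and -0.13 in OE drought, and median-of-ratios scaling moved it to 0.0098 and -0.03. With that scaling 13 members rose and 22 fell in WT drought, where 22.4% and 27.1% of all tested genes did, and 25 rose and 27 fell in OE drought, against 31.5% and 33.2%.

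**Figure D1:**
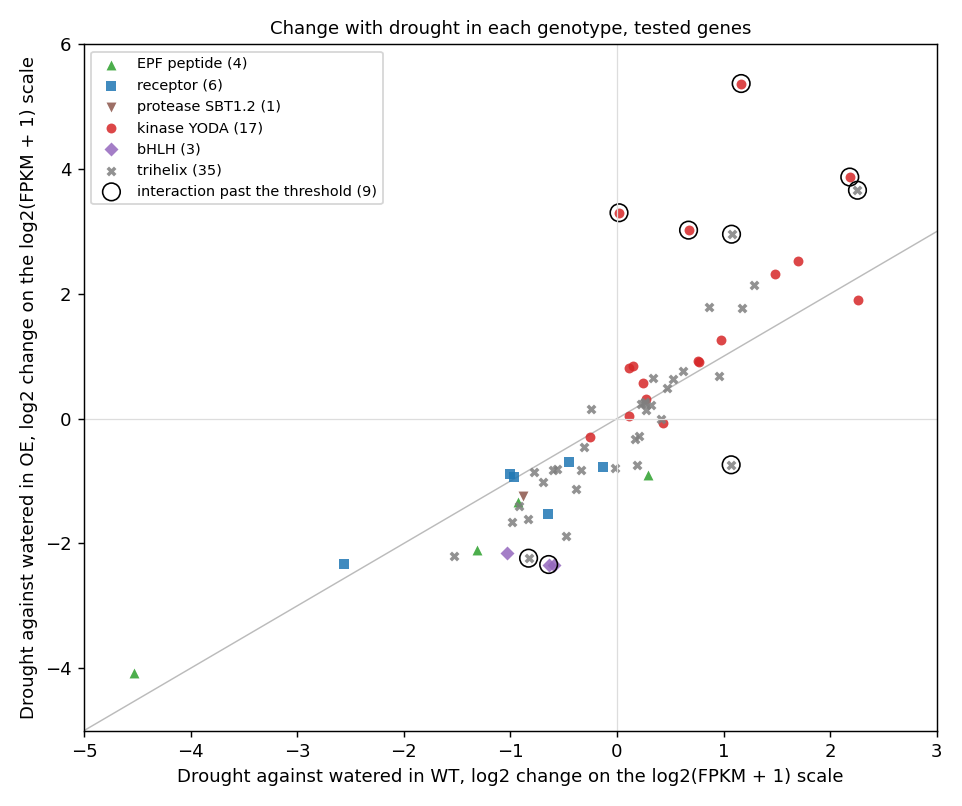
Change with drought in WT (horizontal axis) and in OE (vertical axis) of the 66 tested genes, both as log2 change on the log2(FPKM + 1) scale, with a symbol for each role, a diagonal line where both changes are equal, and a ring around the 9 genes whose change differed between genotypes. Peptides, receptors, the protease and bHLH factors sit at or below 0 in OE, and YODA-described genes spread upward to 5.37 in OE.

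Among the 13 peptide genes, 4 were strong enough to test, and 2 fell in WT and 3 in OE drought, where 21.6% and 34.9% of all tested genes fell. The EPFL9 and EPFL6 genes passed the filter only through watered libraries, so the filter favoured falls. EPFL9, the peptide that promotes stomata, had the highest FPKM of the 13 in watered leaves and almost none in drought. Potri.002G249901 stood at 23.9, 29.6 and 19.5 FPKM in WT watered, 0, 0.279 and 0 in WT drought, 22.6, 8.52 and 22.3 in OE watered and 0, 0 and 0.0910 in OE drought libraries (chromosome 2, 24035541 to 24036811, plus strand). Every drought library lay below every watered library in both genotypes, and the drought groups held 3 fragments in WT and 1 in OE in all. The change was -4.53 ± 0.31, adjusted p = 7.22e-07 in WT and -4.07 ± 0.31, adjusted p = 7.44e-07 in OE. With voom on the recovered fragments the estimates were -8.10 and -7.96. EPFL9 is known from Arabidopsis to be made in mesophyll, and the mesophyll markers given above fell in the same libraries. Their part in the fall of EPFL9 was not tested.

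The pair of genes described as EPFL6, a peptide known for its role in stem growth in Arabidopsis, was lower in every drought library than in every watered one. Potri.013G155500 stood at 2.13, 2.61 and 1.57 FPKM in WT watered, 0, 0.0621 and 0.783 in WT drought, 2.91, 2.81 and 5.40 in OE watered and 0.0597, 0 and 0.122 in OE drought libraries (chromosome 13, 15824783 to 15827233, plus strand). It changed by -1.31 ± 0.26 (adjusted p = 0.00146) in WT and -2.11 ± 0.26 (adjusted p = 3.06e-05) in OE, and by -2.42 and -3.63 with a pseudocount of 0.25 (-3.97 and -5.56 with voom). Potri.019G128200 stood at 2.76, 0.783 and 0.623 FPKM in WT watered, 0.346, 0 and 0.167 in WT drought, 0.751, 3.90 and 2.05 in OE watered and 0.0829, 0 and 0.506 in OE drought libraries (chromosome 19, 15468848 to 15470846, minus strand). This copy fell in OE (-1.34 ± 0.38, adjusted p = 0.00966), and its change in WT was -0.93 ± 0.38 (adjusted p = 0.0573). With a pseudocount of 0.25 the WT change was -1.82 (adjusted p = 0.0314), in a range of 0.0314 to 0.232 over the alternatives. The OE change was then -2.42, and -3.68 with voom.

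The fourth tested peptide gene, described as EPFL3, passed in no comparison. Potri.003G042300 stood at 0, 1.02 and 2.94 FPKM in WT watered, 2.31, 1.54 and 0.747 in WT drought, 1.40, 0.916 and 1.22 in OE watered and 0.247, 0 and 0.251 in OE drought libraries (chromosome 3, 5674567 to 5675788, plus strand). The OE drought libraries were the lowest except that WT watered replicate 1 was also at 0. Its changes were 0.30 ± 0.40 (adjusted p = 0.550) in WT, -0.90 ± 0.40 (adjusted p = 0.0682) in OE, and -1.08 ± 0.40 (adjusted p = 0.0623) between OE and WT in drought. The last of these passed with only the groups compared fitted (0.0401), without WT watered library 1 (0.0221) or 3 (0.0234) and without WT drought library 6 (0.0364). Adjusted p ran from 0.0221 to 0.202 over its alternatives.

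Below the filter, 9 peptide genes remained, and 3 of them reached 1 FPKM in a library. Potri.002G112900 stood at 0.278, 0.0714 and 0.379 FPKM in WT watered, 0.820, 0.818 and 0.977 in WT drought, 0.343, 0.450 and 0.300 in OE watered and 1.33, 2.15 and 0.986 in OE drought libraries (chromosome 2, 8419981 to 8422339, minus strand). This gene is described as EPFL2, known in Arabidopsis for leaf margin teeth, and every drought library exceeded every watered library of its genotype. Without the filter its WT rise was 0.60 (adjusted p = 0.0181), and the OE rise was 0.84 (adjusted p = 0.00205). Potri.005G073700 stood at 0, 0.717 and 0.762 FPKM in WT watered, 0, 0 and 0 in WT drought, 0.413, 1.2 and 1.2 in OE watered and 0, 0 and 0 in OE drought libraries (chromosome 5, 5364527 to 5365305, plus strand), with an EPFL1 description. All 6 drought libraries and WT watered replicate 1 were at 0 for this gene, so that OE drought was at least 7.57-fold lower than OE watered and WT drought at least 3.93-fold lower than WT watered, against a floor of 3 fragments per group. Potri.019G102800 stood at 0, 0.166 and 0 FPKM in WT watered, 0, 0 and 0 in WT drought, 0.319, 0 and 1.92 in OE watered and 0, 0 and 0 in OE drought libraries (chromosome 19, 13162105 to 13162878, plus strand). It is described as EPF1, the peptide that spaces stomata in Arabidopsis, and was above 0 in 3 of 12 libraries, each of them watered. The second EPF1-described gene was above 0 in 1 library. An EPFL8-described gene, Potri.018G130700 (E-value 3e-10), held 0.583, 0.871 and 0.339 FPKM in OE drought, was at 0 in all OE watered and WT drought libraries, and was above 0 in 1 WT watered library. Without the filter it passed in OE (adjusted p = 0.000229).

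**Figure D2:**
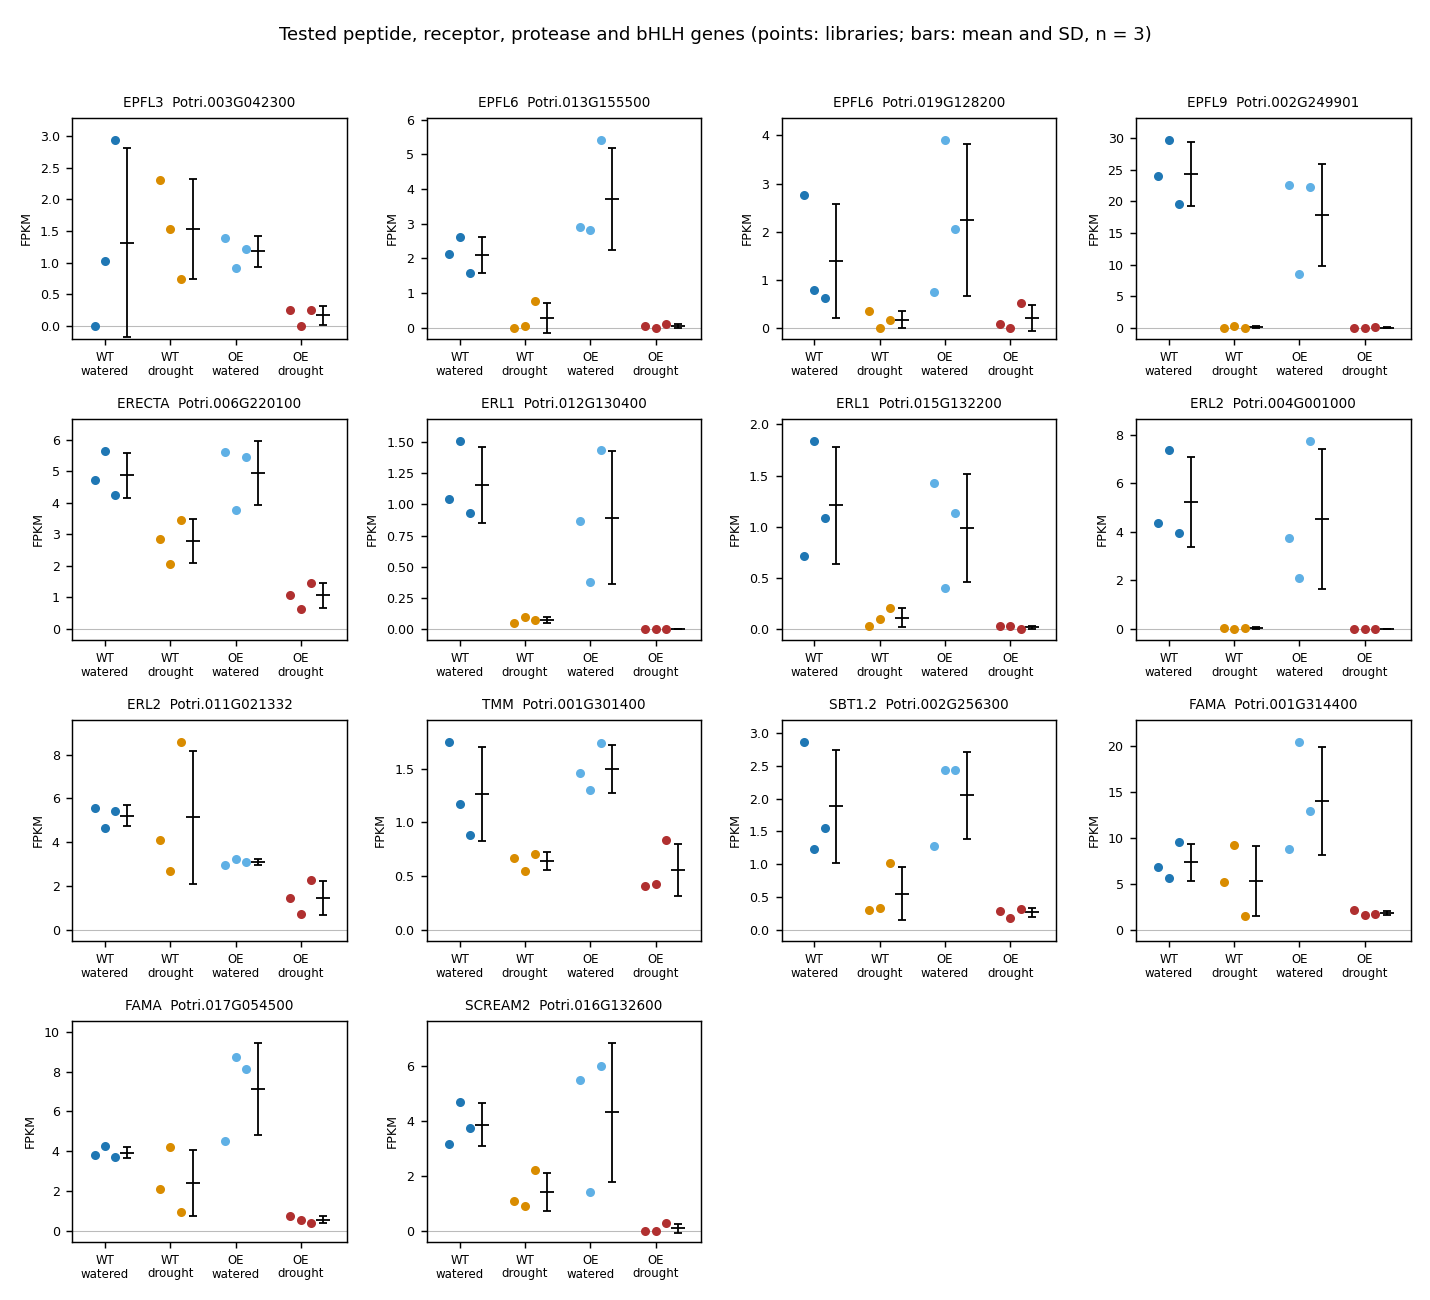
FPKM in each library of the 14 tested peptide, receptor, protease and bHLH genes, with coloured points for the libraries of each group and a black bar for the mean and SD of 3 libraries. EPFL9 stands between 8.52 and 29.6 FPKM in watered leaves and at or under 0.279 in drought, and the means of ERECTA and both FAMA genes are lowest in OE drought.

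Of the 12 receptor genes 6 were tested, and 4 fell in WT and all 6 in OE drought, where 21.6% and 34.9% of all tested genes fell. Several of the 6 passed the filter only through watered libraries, so the filter favoured falls. Potri.T040800, which was higher in drought, did not pass the filter. The gene of the ERECTA description, the receptor kinase for which the family is named, had a full match (E-value 0). Potri.006G220100 stood at 4.71, 5.66 and 4.26 FPKM in WT watered, 2.85, 2.05 and 3.45 in WT drought, 5.60, 3.78 and 5.44 in OE watered and 1.08, 0.644 and 1.45 in OE drought libraries (chromosome 6, 23258354 to 23268248, minus strand). Drought libraries lay below watered libraries in both genotypes, and OE drought libraries lay below all WT drought libraries. It changed by -0.64 ± 0.22 (adjusted p = 0.0252) in WT and -1.53 ± 0.22 (adjusted p = 7.88e-05) in OE, and was lower in OE than in WT drought (-0.88 ± 0.22, adjusted p = 0.0125). Significance in WT was lost without WT watered library 1 (0.0541) or 2 (0.0959) and without WT drought library 5 (0.0958), with adjusted p from 0.00611 to 0.0959 over the alternatives. Between genotypes the call ended with only the groups compared fitted (0.0544), with adjusted p from 0.0104 to 0.0544 over the alternatives, and voom gave -1.43 for it. The difference between the genotypes' changes was -0.89 ± 0.31 (adjusted p = 0.0704), the smallest adjusted p of the receptors for that comparison, and it passed with voom (0.0456).

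Both ERL1 genes with an E-value of 0, receptor kinases that act beside ERECTA, were near 1 FPKM in watered leaves and close to 0 in drought. Potri.012G130400 stood at 1.04, 1.51 and 0.932 FPKM in WT watered, 0.0484, 0.0966 and 0.0703 in WT drought, 0.869, 0.374 and 1.44 in OE watered and 0, 0 and 0 in OE drought libraries (chromosome 12, 14706707 to 14713269, minus strand). With all OE drought libraries at 0, this gene was at least 37.7-fold lower there than in OE watered leaves (floor of 3 fragments per group). Potri.015G132200 stood at 0.710, 1.84 and 1.09 FPKM in WT watered, 0.0238, 0.0951 and 0.208 in WT drought, 1.43, 0.396 and 1.13 in OE watered and 0.0229, 0.0239 and 0 in OE drought libraries (chromosome 15, 14254311 to 14261385, minus strand). All drought libraries of either gene lay below all watered libraries. The first changed by -1.0 ± 0.20 (adjusted p = 0.00153) in WT and -0.88 ± 0.20 (adjusted p = 0.00258) in OE, and the second by -0.97 ± 0.23 (adjusted p = 0.00429) and -0.93 ± 0.23 (adjusted p = 0.00432). At these low levels the size depends on the scale: with voom the 4 estimates were -3.82, -6.06, -3.58 and -5.19, and with a pseudocount of 0.25 they were -2.11, -2.08, -1.98 and -2.11. Potri.012G130400 overlaps its weaker neighbour Potri.012G130300, also described as ERL1 (E-value 2e-13), by 616 bases, and reads there could count for either.

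The tested genes of the ERL2 and TMM descriptions rested on weaker matches. Potri.004G001000 stood at 4.38, 7.37 and 3.97 FPKM in WT watered, 0.0478, 0 and 0.0463 in WT drought, 3.74, 2.1 and 7.74 in OE watered and 0, 0 and 0 in OE drought libraries (chromosome 4, 106683 to 108477, minus strand; E-value 4e-20). It changed by -2.56 ± 0.32 (adjusted p = 5.54e-05) in WT and -2.34 ± 0.32 (adjusted p = 6.01e-05) in OE, every drought library holding at most 1 fragment, and stood at least 96.6-fold lower in OE drought than in OE watered leaves. With voom the estimates were -6.69 and -7.40, and with a pseudocount of 0.25 -4.24 and -4.08. Potri.011G021332 stood at 5.54, 4.66 and 5.44 FPKM in WT watered, 4.12, 2.71 and 8.56 in WT drought, 2.95, 3.22 and 3.11 in OE watered and 1.45, 0.706 and 2.26 in OE drought libraries (chromosome 11, 1816276 to 1817130, minus strand; E-value 1e-08). This second ERL2-described gene did not follow the first: WT drought libraries spread around the watered ones (-0.13 ± 0.32, adjusted p = 0.742), OE libraries fell (-0.78 ± 0.32, adjusted p = 0.0489), and in drought OE was lower than WT (-1.25 ± 0.32, adjusted p = 0.0139). The fall in OE lost its call without the filter on low values (0.0645), with median-of-ratios scaling (0.0544), with voom (0.0706), without WT watered library 1 (0.0623), 2 (0.0621) or 3 (0.0627), without WT drought library 4 (0.0584), without OE watered library 1 (0.0885), 2 (0.0983) or 3 (0.0947) and without OE drought library 4 (0.0892) or 5 (0.183), with adjusted p from 0.0116 to 0.183 over the alternatives. The genotype difference lost its call with only the groups compared fitted (0.0802) and without OE drought library 5 (0.0585). The full range of adjusted p was 0.00599 to 0.0802.

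Potri.001G301400 stood at 1.75, 1.17 and 0.879 FPKM in WT watered, 0.670, 0.547 and 0.708 in WT drought, 1.46, 1.30 and 1.74 in OE watered and 0.409, 0.428 and 0.833 in OE drought libraries (chromosome 1, 30524332 to 30525741, minus strand). Its TMM description has an E-value of 1e-15, and a second annotation column names it a polygalacturonase inhibitor. It fell in OE (-0.69 ± 0.19, adjusted p = 0.00668), with a change of -0.45 ± 0.19 (adjusted p = 0.0583) in WT, although drought libraries lay below watered libraries in both. With voom the OE change was -1.45 and with a pseudocount of 0.25 -1.15. The gene with the full TMM match, Potri.001G202100 (E-value 0), was at 0 in 9 of 12 libraries and at most 0.0656 FPKM in the others, each of them watered. Potri.T040800 stood at 0.0267, 0.0823 and 0.0291 FPKM in WT watered, 1.65, 0.918 and 0.891 in WT drought, 0.0263, 0.0863 and 0.0288 in OE watered and 0.256, 0.243 and 0.426 in OE drought libraries (scaffold_39, 50647 to 55446, minus strand). Described as ERL1 with an E-value of 2e-35, it stayed below the filter, with every drought library above every watered one of its genotype and WT drought above OE drought, whereas the tested ERL1 pair was lower in drought. Without the filter its rise passed in WT (1.02, adjusted p = 0.000106).

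Of the 5 genes described as the protease SBT1.2 (SDD1), each with an E-value of 0, a single gene was strong enough to test. Potri.002G256300 stood at 2.86, 1.23 and 1.56 FPKM in WT watered, 0.301, 0.331 and 1.02 in WT drought, 1.28, 2.43 and 2.44 in OE watered and 0.289, 0.182 and 0.324 in OE drought libraries (chromosome 2, 24553548 to 24556396, plus strand). Drought libraries lay below watered ones in both genotypes, WT drought replicate 6 being the highest of them. The change was -0.88 ± 0.26 (adjusted p = 0.0122) in WT and -1.25 ± 0.26 (adjusted p = 0.00123) in OE, or -1.45 and -2.12 with a pseudocount of 0.25, and -1.88 and -2.85 with voom. WT lost its call without WT watered library 1 (0.0558), with adjusted p from 0.00465 to 0.0558 over the alternatives. Between genotypes it did not pass, at 0.10 ± 0.26 (adjusted p = 0.958) in watered leaves, -0.27 ± 0.26 (adjusted p = 0.459) in drought and -0.36 ± 0.36 (adjusted p = 0.513) for the difference of the changes.

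The other 4 protease genes stayed at or under 0.364 FPKM. Potri.003G118700 stood at 0, 0 and 0 FPKM in WT watered, 0.0363, 0 and 0.0351 in WT drought, 0, 0 and 0.0431 in OE watered and 0.174, 0.364 and 0.0709 in OE drought libraries (chromosome 3, 14164451 to 14166817, plus strand), each OE drought library lying above the other 9. Its OE change passed without the filter (0.24, adjusted p = 0.0198). Potri.003G118500 stood at 0, 0 and 0.0493 FPKM in WT watered, 0, 0 and 0 in WT drought, 0.0445, 0 and 0 in OE watered and 0, 0 and 0 in OE drought libraries (chromosome 3, 14157609 to 14159705, plus strand). Potri.003G118800 stood at 0.0445, 0 and 0 FPKM in WT watered, 0, 0.0805 and 0 in WT drought, 0, 0 and 0 in OE watered and 0.0388, 0.0405 and 0 in OE drought libraries (chromosome 3, 14170357 to 14172483, plus strand). These 3 genes are neighbours on chromosome 3, with the trihelix gene Potri.003G118600 among them, and near-identical copies may share reads. Potri.T004700 stood at 0, 0.186 and 0.0493 FPKM in WT watered, 0, 0 and 0.0397 in WT drought, 0, 0 and 0.146 in OE watered and 0, 0.0823 and 0 in OE drought libraries (scaffold_20, 749488 to 751581, minus strand). No group of these last 3 stood apart from the others.

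The kinase YODA is the entry to the cascade below the receptors, and 19 genes carry its description, of which 17 were tested. In WT drought 8 rose and 0 fell, where 33.9% of all tested genes rose and 21.6% fell. In OE drought 13 rose and 0 fell, where 27.7% rose and 34.9% fell. With median-of-ratios scaling 7 and 13 rose and 0 fell, where 22.4% and 31.5% of all tested genes rose and 27.1% and 33.2% fell. The 3 genes with a full YODA match (E-value 0) passed in none of the 5 comparisons. The other 14 tested genes matched YODA less well, with E-values up to 2e-06, and their median change was 0.77 in WT and 1.58 in OE, against 0.12 and -0.06 for the full matches. These medians describe groups chosen on their match after earlier results were known and were not tested against each other.

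Potri.003G129000 stood at 5.54, 5.44 and 6.14 FPKM in WT watered, 8.30, 7.00 and 8.84 in WT drought, 5.20, 7.66 and 7.08 in OE watered and 6.58, 5.02 and 7.34 in OE drought libraries (chromosome 3, 14895561 to 14903594, minus strand). In WT every drought library exceeded every watered one (0.43 ± 0.18, adjusted p = 0.0619), in OE they overlapped (-0.06 ± 0.18, adjusted p = 0.774). The WT change passed with voom (0.0496) and without OE drought library 5 (0.0405). Across settings, adjusted p lay between 0.0405 and 0.343. Potri.012G143900 stood at 8.35, 8.22 and 6.88 FPKM in WT watered, 5.18, 5.09 and 9.70 in WT drought, 6.74, 6.47 and 7.23 in OE watered and 7.34, 3.03 and 6.74 in OE drought libraries (chromosome 12, 15642779 to 15650109, minus strand), with changes of -0.25 ± 0.28 (adjusted p = 0.467) and -0.29 ± 0.28 (adjusted p = 0.391). Potri.015G146700 stood at 5.26, 4.67 and 4.66 FPKM in WT watered, 5.16, 4.21 and 6.96 in WT drought, 4.06, 5.84 and 5.31 in OE watered and 5.69, 3.95 and 6.33 in OE drought libraries (chromosome 15, 15136424 to 15144321, minus strand), with changes of 0.12 ± 0.21 (adjusted p = 0.658) and 0.05 ± 0.21 (adjusted p = 0.845). For the last 2 genes drought and watered libraries overlapped in both genotypes.

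The 4 YODA-described genes with the largest rises in OE drought were also those whose change differed between genotypes. Potri.005G139300 stood at 0.512, 0.676 and 2.47 FPKM in WT watered, 2.32, 2.38 and 7.84 in WT drought, 0.866, 1.18 and 0.316 in OE watered and 63.4, 116 and 49.5 in OE drought libraries (chromosome 5, 11598356 to 11599649, plus strand; E-value 1e-48). OE drought libraries were thus 96.8 times the OE watered mean and 18.2 times the WT drought mean, without overlap. It rose by 5.37 ± 0.45 (adjusted p = 1.38e-06) in OE and by 1.17 ± 0.45 (adjusted p = 0.0432) in WT, and the difference of the changes was 4.21 ± 0.63 (adjusted p = 0.00338). Its rise in WT, where drought and watered libraries overlap, lost its call without the filter on low values (0.0617), with median-of-ratios scaling (0.110), with only the groups compared fitted (0.0752), with voom (0.0686), without WT watered library 1 (0.140) or 2 (0.130), without WT drought library 6 (0.168), without OE watered library 1 (0.0569) and without OE drought library 4 (0.0558), with adjusted p from 0.0171 to 0.168 over the alternatives.

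Its neighbour Potri.005G139200 stood at 2.82, 2.01 and 3.16 FPKM in WT watered, 2.03, 5.82 and 8.32 in WT drought, 1.71, 3.74 and 1.95 in OE watered and 25.3, 31.9 and 22.6 in OE drought libraries (chromosome 5, 11590609 to 11591917, plus strand; E-value 4e-36). Here too each OE drought library exceeded all other libraries, while WT drought libraries spread from the watered level to the highest value outside OE drought. It rose in OE (3.02 ± 0.36, adjusted p = 2.16e-05) and stood at 0.67 ± 0.36 (adjusted p = 0.133) in WT, with a difference of 2.35 ± 0.51 (adjusted p = 0.0154). The WT change passed without WT drought library 4 (0.00656). Adjusted p ran from 0.00656 to 0.440 over its alternatives. The pair lies 6438 bases apart, and copies of a tandem pair may share reads.

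Potri.007G044800 stood at 3.76, 5.17 and 5.64 FPKM in WT watered, 1.58, 4.07 and 14.5 in WT drought, 2.19, 2.97 and 3.33 in OE watered and 35.6, 38.6 and 35.1 in OE drought libraries (chromosome 7, 3956136 to 3957545, plus strand; E-value 2e-43). WT drought replicate 6 stood above the other WT libraries, which overlapped between treatments, and every OE drought library stood above it. The gene rose in OE (3.30 ± 0.47, adjusted p = 8.56e-05), changed by 0.02 ± 0.47 (adjusted p = 0.976) in WT, and differed in its change by 3.28 ± 0.67 (adjusted p = 0.0119). Potri.014G035500 stood at 3.18, 3.06 and 3.94 FPKM in WT watered, 16.2, 13.1 and 31.3 in WT drought, 3.1, 3.99 and 3.0 in OE watered and 56.1, 85.1 and 51.4 in OE drought libraries (chromosome 14, 2909755 to 2915029, minus strand; E-value 1e-92). It rose in both genotypes without overlap, by 2.18 ± 0.28 (adjusted p = 7.14e-05) and 3.87 ± 0.28 (adjusted p = 5.54e-07), and by more in OE (1.69 ± 0.40, adjusted p = 0.0209). That difference lost its call with the replicate block (0.0596) and without WT drought library 4 (0.0512), with adjusted p from 0.00155 to 0.0596 over the alternatives.

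**Figure D3:**
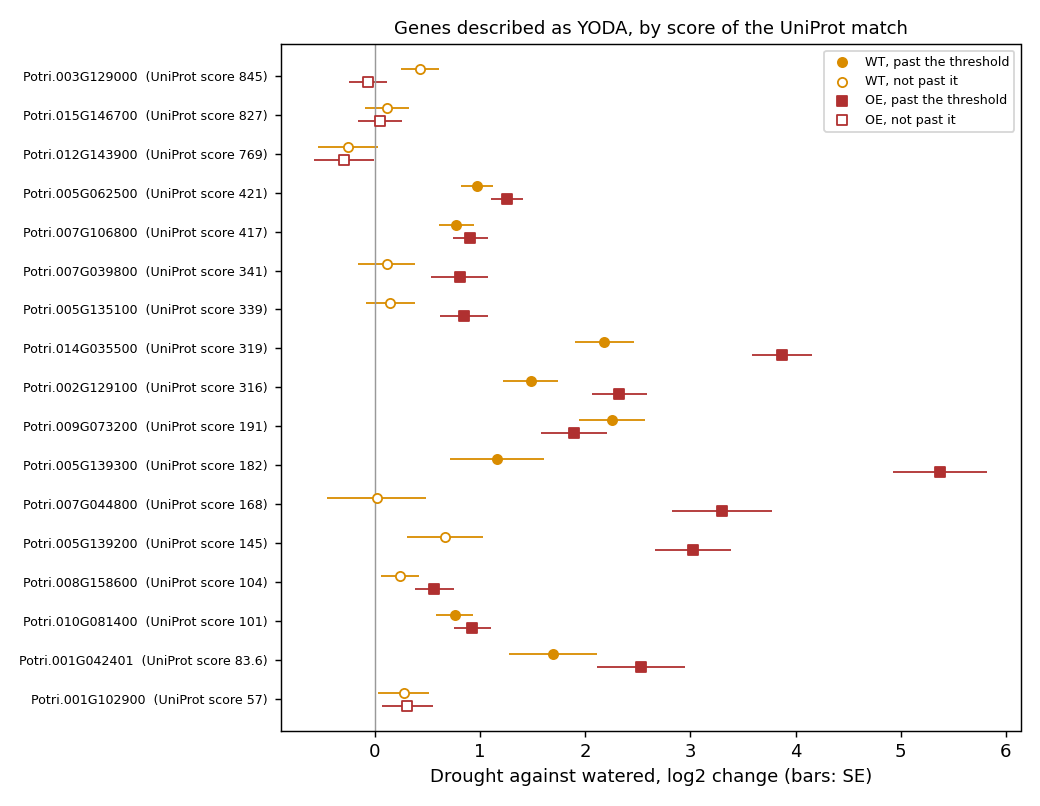
Log2 change with drought (points) ± SE (bars) in WT and OE of the 17 tested genes described as YODA, ordered by the score of their UniProt match, with filled symbols past the threshold and open symbols not past it. The 3 genes with scores of 845, 827 and 769 lie near 0, and the largest changes in OE, from 3.02 to 5.37, belong to genes with scores of 319 or less.

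The remaining 10 genes of this description changed by less in OE drought than these 4, but not in WT, where Potri.009G073200 rose most of all 17. Potri.001G042401 stood at 0.857, 1.32 and 1.40 FPKM in WT watered, 3.89, 3.75 and 14.2 in WT drought, 1.06, 3.38 and 2.08 in OE watered and 16.4, 21.3 and 12.7 in OE drought libraries (chromosome 1, 3089213 to 3090813, minus strand; E-value 1e-15), rising by 1.70 ± 0.42 (adjusted p = 0.00496) in WT and 2.53 ± 0.42 (adjusted p = 0.000256) in OE. Potri.002G129100 stood at 1.08, 1.42 and 1.28 FPKM in WT watered, 5.55, 3.01 and 8.53 in WT drought, 0.976, 1.29 and 0.809 in OE watered and 9.19, 9.61 and 8.56 in OE drought libraries (chromosome 2, 9669985 to 9675544, minus strand), rising by 1.48 ± 0.26 (adjusted p = 0.000604) and 2.33 ± 0.26 (adjusted p = 1.29e-05). Potri.009G073200 stood at 1.26, 0.417 and 0.709 FPKM in WT watered, 8.03, 9.85 and 5.14 in WT drought, 1.92, 1.97 and 0.789 in OE watered and 7.08, 12.7 and 6.26 in OE drought libraries (chromosome 9, 7154425 to 7156938, plus strand), rising by 2.26 ± 0.31 (adjusted p = 0.000117) and 1.90 ± 0.31 (adjusted p = 0.000255). In these 3 genes every drought library exceeded every watered library of its genotype, and in the first 2 WT drought replicate 6 was the highest of the WT libraries.

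Potri.005G062500 stood at 11.7, 9.60 and 12.4 FPKM in WT watered, 22.0, 22.0 and 25.0 in WT drought, 10.6, 13.6 and 11.2 in OE watered and 28.9, 32.6 and 27.4 in OE drought libraries (chromosome 5, 4465056 to 4470506, plus strand), rising by 0.97 ± 0.15 (adjusted p = 0.000231) in WT and 1.26 ± 0.15 (adjusted p = 1.97e-05) in OE. Potri.007G106800 stood at 13.4, 11.7 and 14.6 FPKM in WT watered, 22.9, 20.5 and 26.5 in WT drought, 14.9, 20.5 and 13.9 in OE watered and 30.9, 31.5 and 31.1 in OE drought libraries (chromosome 7, 13070354 to 13075675, minus strand), rising by 0.77 ± 0.17 (adjusted p = 0.00218) and 0.91 ± 0.17 (adjusted p = 0.000532). Potri.010G081400 stood at 3.68, 2.63 and 3.40 FPKM in WT watered, 5.56, 5.56 and 7.43 in WT drought, 3.41, 4.54 and 3.32 in OE watered and 8.21, 7.48 and 8.31 in OE drought libraries (chromosome 10, 10762161 to 10772700, minus strand), rising by 0.76 ± 0.18 (adjusted p = 0.00341) and 0.93 ± 0.18 (adjusted p = 0.000664). Drought and watered libraries of these 3 genes did not overlap in either genotype, and the spread within a group was small. With median-of-ratios scaling the WT rise of Potri.007G106800 was 0.49. Potri.007G106800 had the smallest adjusted p of the kinases between genotypes in watered leaves (0.28 ± 0.17, adjusted p = 0.688).

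Another 3 genes passed in OE and not in WT, and the difference of their changes did not pass. Potri.005G135100 stood at 3.17, 3.0 and 2.67 FPKM in WT watered, 3.27, 2.06 and 5.38 in WT drought, 2.99, 3.37 and 2.72 in OE watered and 6.46, 5.82 and 6.42 in OE drought libraries (chromosome 5, 11051005 to 11056345, plus strand), with 0.85 ± 0.23 (adjusted p = 0.00685) in OE and 0.15 ± 0.23 (adjusted p = 0.602) in WT. Potri.007G039800 stood at 4.34, 4.89 and 4.01 FPKM in WT watered, 4.06, 3.04 and 8.73 in WT drought, 3.07, 3.58 and 4.38 in OE watered and 6.89, 6.66 and 7.91 in OE drought libraries (chromosome 7, 3200663 to 3205529, plus strand), with 0.81 ± 0.27 (adjusted p = 0.0214) and 0.11 ± 0.27 (adjusted p = 0.744). Potri.008G158600 stood at 3.55, 3.57 and 3.66 FPKM in WT watered, 4.04, 3.59 and 5.91 in WT drought, 2.85, 3.68 and 2.65 in OE watered and 5.0, 4.51 and 5.45 in OE drought libraries (chromosome 8, 10740469 to 10751295, plus strand), with 0.57 ± 0.18 (adjusted p = 0.0183) and 0.24 ± 0.18 (adjusted p = 0.284). In each of them WT drought replicate 6 was the highest WT library. The OE rise of Potri.007G039800 lost its call without OE watered library 1 (0.0744) and without OE drought library 6 (0.0634). Over all alternatives the adjusted p spanned 0.00129 to 0.0744. That of Potri.008G158600 lost its call without OE watered library 1 (0.0561) or 3 (0.0614) and without OE drought library 6 (0.0610), with adjusted p from 0.00491 to 0.0614 over the alternatives. The differences of the changes were 0.70 ± 0.33 (adjusted p = 0.153), 0.70 ± 0.38 (adjusted p = 0.222) and 0.32 ± 0.26 (adjusted p = 0.404), and without WT drought replicate 6 the first 2 passed (0.0161 and 0.0111).

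Potri.001G102900 stood at 8.18, 7.22 and 8.26 FPKM in WT watered, 8.51, 7.37 and 14.6 in WT drought, 7.77, 10.5 and 7.21 in OE watered and 11.9, 8.05 and 12.6 in OE drought libraries (chromosome 1, 8202778 to 8212124, plus strand; E-value 2e-06). This weakest match of the set overlapped between drought and watered libraries, with 0.28 ± 0.24 (adjusted p = 0.353) in WT and 0.31 ± 0.24 (adjusted p = 0.285) in OE. The 2 untested genes of the description, Potri.002G073100 and Potri.006G181000, stayed at or under 0.158 FPKM.

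The bHLH factors drive the steps of the stomatal lineage. Of 4 genes placed here by description, 3 were tested. In WT drought 1 of them fell, the SCREAM2-described gene, and in OE drought all 3 did, where 21.6% and 34.9% of all tested genes fell. FAMA, which sets the last division and the fate of guard cells, is the description of a pair of genes with strong matches. Potri.001G314400 stood at 6.89, 5.59 and 9.56 FPKM in WT watered, 5.16, 9.23 and 1.54 in WT drought, 8.82, 20.4 and 13.0 in OE watered and 2.12, 1.65 and 1.72 in OE drought libraries (chromosome 1, 32020286 to 32023018, plus strand; E-value 5e-133). Potri.017G054500 stood at 3.82, 4.26 and 3.71 FPKM in WT watered, 2.11, 4.22 and 0.941 in WT drought, 4.50, 8.73 and 8.14 in OE watered and 0.730, 0.551 and 0.413 in OE drought libraries (chromosome 17, 4816201 to 4818725, plus strand; E-value 4e-112). In both genes OE drought libraries lay below all OE watered libraries, whereas WT drought libraries overlapped the watered ones, replicate 5 being high and replicate 6 low. The changes in OE were -2.34 ± 0.43 (adjusted p = 0.000553) and -2.34 ± 0.32 (adjusted p = 6.27e-05), and the changes in WT were -0.59 ± 0.43 (adjusted p = 0.260) and -0.64 ± 0.32 (adjusted p = 0.109).

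The difference between these changes passed for Potri.017G054500 (-1.70 ± 0.45, adjusted p = 0.0316) and not for Potri.001G314400 (-1.75 ± 0.61, adjusted p = 0.0712). For the former the call ended with median-of-ratios scaling (0.0557), without WT watered library 1 (0.0640), 2 (0.0658) or 3 (0.0636), without WT drought library 4 (0.0641) or 5 (0.0509), without OE watered library 2 (0.0646) or 3 (0.0592) and without OE drought library 4 (0.0527), 5 (0.0593) or 6 (0.0521). The full range of adjusted p was 0.00417 to 0.0658. For the latter it passed without WT drought replicate 6 (adjusted p = 0.00501), in a range of 0.00501 to 0.151. In WT the changes passed without WT drought replicate 5, at 0.0459 for Potri.001G314400 and 0.0130 for Potri.017G054500. With voom the OE fall of Potri.017G054500 was -3.58 and the difference of its changes -2.63. In watered leaves the difference of OE from WT was 0.81 ± 0.43 (adjusted p = 0.644) and 0.68 ± 0.32 (adjusted p = 0.579), which did not pass, and the 95% interval of the second difference ran from -0.02 to 1.38. FAMA acts in cells that become guard cells, and the list of 33 guard cell genes (such as the kinase SRK2E and the channels KAT1 and KAT3) summed to 325.8 to 367.7 FPKM in watered and 473.6 to 501.6 in drought libraries of WT, and to 362.7 to 486.8 and 454.2 to 469.2 in those of OE. Of its 26 tested genes 9 rose and 6 fell in WT and 8 rose and 11 fell in OE drought. Of all tested genes 33.9% rose and 21.6% fell in WT, and 27.7% rose and 34.9% fell in OE. The part of guard cell number in the fall of FAMA was not tested.

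Potri.016G132600 stood at 3.14, 4.68 and 3.76 FPKM in WT watered, 1.10, 0.916 and 2.22 in WT drought, 5.49, 1.42 and 6.01 in OE watered and 0, 0 and 0.269 in OE drought libraries (chromosome 16, 13573598 to 13575477, minus strand). It is described as SCREAM2, a partner of the 3 lineage factors, on a weak match (E-value 8e-07). Its domain annotation names LRS4, whereas that of both FAMA genes and the MUTE gene names HLH. Its place among the bHLH factors is therefore doubtful. Genes described as ICE1, another name of SCREAM, are given under the other observations. Drought libraries lay below watered ones in both genotypes and OE drought below WT drought, with changes of -1.04 ± 0.36 (adjusted p = 0.0294) in WT and -2.15 ± 0.36 (adjusted p = 0.000298) in OE and a genotype difference of -1.12 ± 0.36 (adjusted p = 0.0379) in drought. Significance in WT was lost with voom (0.0559), without WT watered library 2 (0.0960) or 3 (0.0620) and without WT drought library 4 (0.0820) or 5 (0.0932), with adjusted p from 0.00279 to 0.0960 over the alternatives. The genotype call ended without the filter on low values (0.0541), with median-of-ratios scaling (0.0708), with the replicate block (0.0552), without WT watered library 3 (0.0515), without WT drought library 4 (0.0747) or 6 (0.0977) and without OE drought library 4 (0.0956), 5 (0.109) or 6 (0.0501). Across settings, adjusted p lay between 0.00625 and 0.109. With a pseudocount of 0.25 the OE fall was -3.62 and the genotype difference -2.30, and with voom they were -5.43 and -3.98. The gene described as MUTE, Potri.008G202900, was above 0 in a single library, at 0.0729 FPKM in WT watered replicate 1.

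The trihelix factors bind GT elements in promoters, and 35 of 46 were tested. In WT drought 10 rose and 7 fell, and in OE drought 10 rose and 15 fell, with medians of 0.21 and -0.28 beside 0.24 and -0.13 for all tested genes. Of all tested genes 33.9% rose and 21.6% fell in WT, and 27.7% rose and 34.9% fell in OE. With median-of-ratios scaling 6 rose and 11 fell in WT, where 22.4% and 27.1% of all tested genes did. In OE 12 rose and 15 fell with that scaling, where 31.5% and 33.2% did. By name, both GTL1 genes fell, all 4 genes described as GT-3a or GT-3b rose in both genotypes, and both GT-1 genes fell in OE and 1 of them in WT. The scaling ended the WT call of 2 of the GT-3 genes, given below. The 11 untested genes included both described as PTL, a factor of petal growth, which stayed at or under 0.409 FPKM.

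**Figure D4:**
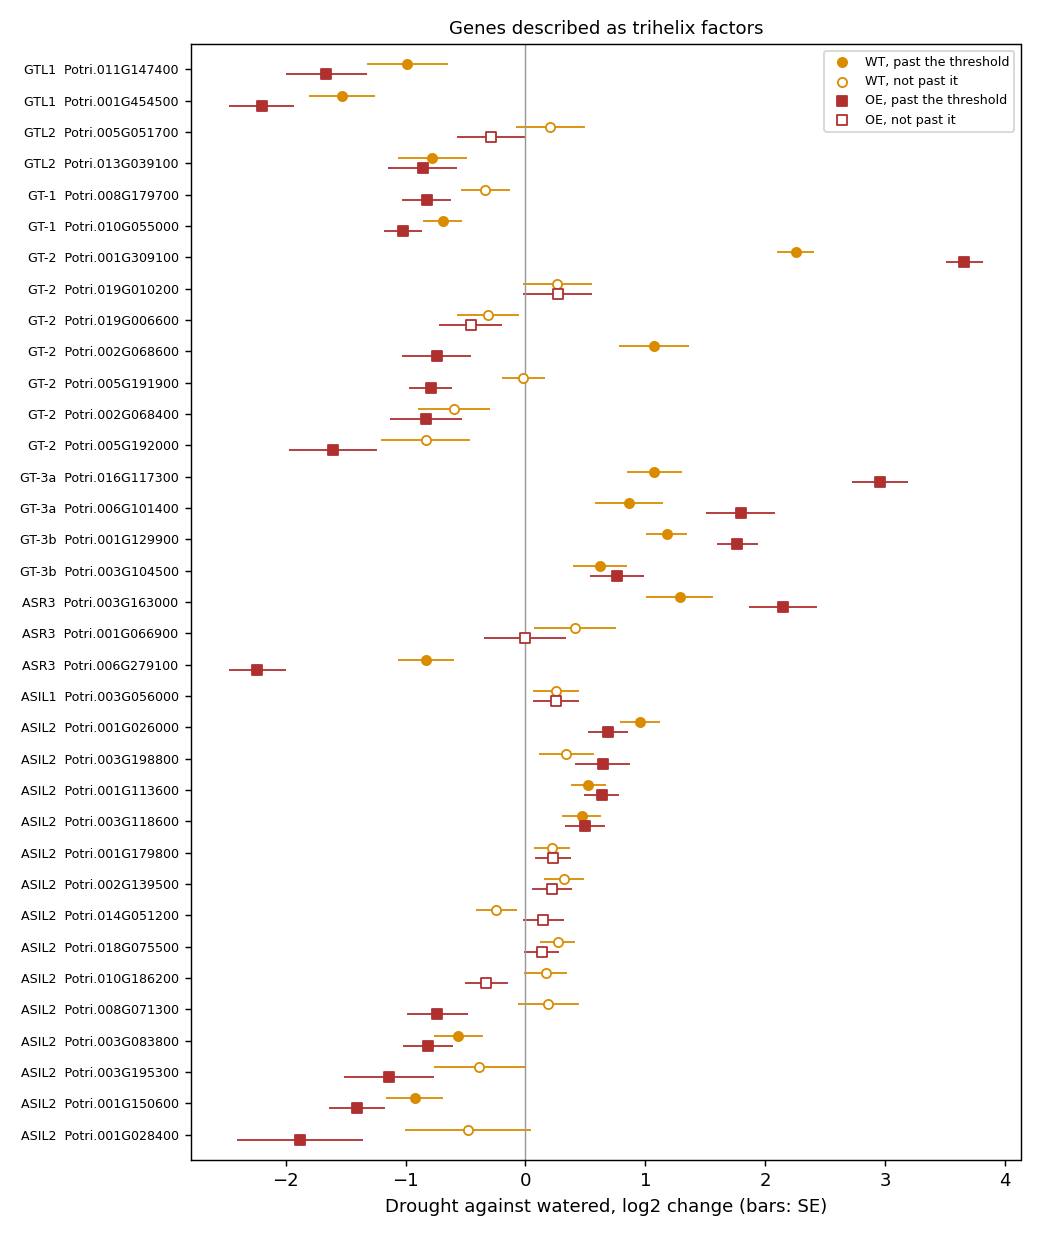
Log2 change with drought (points) ± SE (bars) in WT and OE of the 35 tested trihelix genes, grouped by described name, with filled symbols past the threshold and open symbols not past it. Both GTL1 genes lie left of 0, the GT-3a and GT-3b genes right of it, and Potri.002G068600 (GT-2) has its WT change at 1.07 and its OE change at -0.74.

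GTL1, the repressor of SDD1 in Arabidopsis, is the description of a pair of genes. Potri.001G454500 stood at 28.5, 25.9 and 22.2 FPKM in WT watered, 7.21, 7.82 and 9.56 in WT drought, 22.0, 31.4 and 28.6 in OE watered and 6.44, 2.67 and 7.33 in OE drought libraries (chromosome 1, 48906316 to 48911008, minus strand; E-value 1e-18). Potri.011G147400 stood at 13.2, 11.5 and 11.3 FPKM in WT watered, 5.16, 4.25 and 7.63 in WT drought, 11.3, 16.2 and 16.1 in OE watered and 5.36, 1.54 and 6.07 in OE drought libraries (chromosome 11, 16676393 to 16681084, plus strand; E-value 2e-06, with GTL1 also named in a second annotation column). In both genes and genotypes every drought library lay below every watered library, and OE drought replicate 5 was the lowest of all. The changes were -1.53 ± 0.27 (adjusted p = 0.000670) in WT and -2.20 ± 0.27 (adjusted p = 2.84e-05) in OE for the first gene, and -0.98 ± 0.34 (adjusted p = 0.0272) and -1.66 ± 0.34 (adjusted p = 0.00113) for the second. The WT call of Potri.011G147400 ended without WT watered library 1 (0.0752), 2 (0.0594) or 3 (0.0521) and without WT drought library 4 (0.0700) or 5 (0.0916), with adjusted p from 0.00195 to 0.0916 over the alternatives. The tested SDD1-described gene given above fell in the same groups. Between genotypes in drought the GTL1 genes differed by -0.58 ± 0.27 (adjusted p = 0.124) and -0.43 ± 0.34 (adjusted p = 0.355), neither past the threshold.

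The largest trihelix rise was in a gene described as GT-2, a factor first known from a light-regulated promoter, on a weak match (E-value 8e-15). Potri.001G309100 stood at 3.56, 3.05 and 3.78 FPKM in WT watered, 18.1, 20.2 and 22.8 in WT drought, 3.42, 5.02 and 3.89 in OE watered and 64.4, 64.4 and 60.6 in OE drought libraries (chromosome 1, 31269353 to 31271837, minus strand). The groups were tight and did not overlap in drought, OE drought standing at 3.1 times the WT drought mean. It rose by 2.26 ± 0.15 (adjusted p = 6.41e-07) in WT and 3.66 ± 0.15 (adjusted p = 2.58e-08) in OE, and the difference of the changes, 1.41 ± 0.22 (adjusted p = 0.00373), passed.

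Another GT-2 gene, with a strong match (E-value 2e-109), moved in opposite directions. Potri.002G068600 stood at 18.9, 14.5 and 16.0 FPKM in WT watered, 44.3, 37.0 and 27.3 in WT drought, 16.8, 26.3 and 25.7 in OE watered and 15.3, 7.84 and 18.4 in OE drought libraries (chromosome 2, 4676323 to 4679266, minus strand). All WT drought libraries lay above the WT watered ones, and in OE the drought libraries lay below or among the watered ones. The gene rose by 1.07 ± 0.29 (adjusted p = 0.00831) in WT and fell in OE, with -0.74 ± 0.29 (adjusted p = 0.0420), and the changes differed by -1.81 ± 0.41 (adjusted p = 0.0178). The fall in OE lost its call without the filter on low values (0.0575), with only the groups compared fitted (0.0769), without WT watered library 1 (0.0507), 2 (0.0526) or 3 (0.0543), without WT drought library 5 (0.0525), without OE watered library 2 (0.121) or 3 (0.119) and without OE drought library 4 (0.0502) or 5 (0.177). Adjusted p ran from 0.0165 to 0.177 over its alternatives. The difference lost its call without WT watered library 2 (0.0502), with adjusted p from 0.00683 to 0.0502 over the alternatives. Of the other 5 tested GT-2 genes, 3 fell in OE drought, where 34.9% of all tested genes fell. In WT 0 of them passed, with changes between -0.83 and 0.26.

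In all 4 genes described as GT-3a or GT-3b every drought library exceeded every watered library of its genotype. How many of all tested genes were separated in this way was not computed. Potri.016G117300 stood at 0.0714, 0.0733 and 0.700 FPKM in WT watered, 1.49, 2.26 and 1.25 in WT drought, 0.422, 0.0769 and 0.308 in OE watered and 9.32, 9.74 and 7.46 in OE drought libraries (chromosome 16, 12265459 to 12267027, plus strand). It passed the filter only through drought libraries, so the filter favoured a rise. It rose by 1.07 ± 0.23 (adjusted p = 0.00212) in WT and 2.96 ± 0.23 (adjusted p = 7.97e-07) in OE, where the drought mean was 32.9 times the watered mean. The difference of the changes was 1.88 ± 0.33 (adjusted p = 0.00614). That difference did not pass with voom (0.149). Over all alternatives the adjusted p spanned 0.00468 to 0.149. With voom the 2 changes were 3.02 and 5.05, and with a pseudocount of 0.25 the WT change was 2.02.

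Potri.006G101400 stood at 1.23, 0.505 and 1.52 FPKM in WT watered, 1.93, 4.52 and 2.16 in WT drought, 1.78, 3.18 and 2.03 in OE watered and 9.85, 8.95 and 12.6 in OE drought libraries (chromosome 6, 7832841 to 7834172, plus strand), also a GT-3a gene. It rose by 0.87 ± 0.28 (adjusted p = 0.0223) in WT and 1.80 ± 0.28 (adjusted p = 0.000186) in OE, and stood higher in OE than in WT drought (1.62 ± 0.28, adjusted p = 0.00270). Significance in WT was lost with median-of-ratios scaling (0.0560), with only the groups compared fitted (0.0519), without WT watered library 2 (0.101) and without WT drought library 5 (0.0933), with adjusted p from 0.0182 to 0.101 over the alternatives, and voom gave 1.40 for that change. In watered leaves it had the smallest adjusted p of the trihelix genes between genotypes (0.69 ± 0.28, adjusted p = 0.518). Potri.001G129900 stood at 5.58, 6.49 and 5.88 FPKM in WT watered, 13.9, 17.4 and 13.3 in WT drought, 4.15, 5.14 and 6.68 in OE watered and 20.6, 21.2 and 19.0 in OE drought libraries (chromosome 1, 10498754 to 10502720, minus strand). Described as GT-3b, it rose by 1.18 ± 0.17 (adjusted p = 0.000148) and 1.77 ± 0.17 (adjusted p = 3.74e-06). The second GT-3b gene, Potri.003G104500, rose by 0.62 ± 0.23 (adjusted p = 0.0336) in WT and 0.77 ± 0.23 (adjusted p = 0.0107) in OE. Its WT call ended with median-of-ratios scaling (0.121), with only the groups compared fitted (0.0703), without WT watered library 1 (0.145) or 2 (0.0627) and without WT drought library 4 (0.131). The full range of adjusted p was 0.0231 to 0.145.

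ASR3, a repressor of immune genes in Arabidopsis, is the description of 6 genes, and 2 of the 3 tested moved in opposite directions. Potri.003G163000 stood at 4.60, 3.27 and 5.83 FPKM in WT watered, 12.9, 18.2 and 7.88 in WT drought, 5.75, 6.81 and 4.53 in OE watered and 26.7, 36.0 and 23.7 in OE drought libraries (chromosome 3, 17396102 to 17399429, plus strand; E-value 5e-109). Potri.006G279100 stood at 17.7, 19.6 and 16.2 FPKM in WT watered, 9.48, 11.1 and 8.32 in WT drought, 17, 20.9 and 20.9 in OE watered and 3.89, 1.86 and 4.91 in OE drought libraries (chromosome 6, 27757885 to 27760916, plus strand; E-value 1e-08). OE drought libraries were above all others in the first and below all others in the second. The first rose by 1.29 ± 0.28 (adjusted p = 0.00249) in WT and 2.15 ± 0.28 (adjusted p = 4.42e-05) in OE, the second changed by -0.83 ± 0.24 (adjusted p = 0.0109) and -2.24 ± 0.24 (adjusted p = 8.11e-06), and by more in OE (-1.41 ± 0.33, adjusted p = 0.0211). That difference lost its call with the replicate block (0.0565), with adjusted p from 0.0115 to 0.0565 over the alternatives. The third, Potri.001G066900 with a match as strong as the first (E-value 1e-106), did not pass in any comparison, with 0.41 ± 0.34 (adjusted p = 0.316) in WT and -0.0040 ± 0.34 (adjusted p = 0.993) in OE.

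ASIL factors repress seed genes in seedlings, and their description covered 16 trihelix genes, 15 of them tested. Of the 14 tested ASIL2 genes 3 rose and 2 fell in WT drought, where 33.9% and 21.6% of all tested genes did. In OE drought 4 rose and 5 fell, where 27.7% and 34.9% did. Their matches were weak, with E-values from 6e-23 to 6e-07. The changes of the tested ASIL2 genes ran from -0.92 to 0.96 in WT and from -1.88 to 0.69 in OE, a smaller span than that of the GT-2 genes (from -1.61 to 3.66 in OE). The ASIL1 gene changed by 0.25 in both genotypes and did not pass. The GT-1 pair, factors that bind light-response elements, fell in OE: Potri.008G179700 changed by -0.82 ± 0.20 (adjusted p = 0.00384) and Potri.010G055000 by -1.02 ± 0.16 (adjusted p = 0.000164), and in WT by -0.33 ± 0.20 (adjusted p = 0.179) and -0.69 ± 0.16 (adjusted p = 0.00339). Of the GTL2 pair, Potri.013G039100 fell in both genotypes, with -0.78 ± 0.29 (adjusted p = 0.0367) in WT and -0.86 ± 0.29 (adjusted p = 0.0211) in OE. Significance in WT was lost with a pseudocount of 0.25 (0.0604), without WT watered library 2 (0.138) or 3 (0.0648) and without WT drought library 4 (0.0902) or 5 (0.111). Across settings, adjusted p lay between 0.0143 and 0.138. Significance in OE was lost without OE watered library 3 (0.0860) and without OE drought library 5 (0.0917), with adjusted p from 0.0164 to 0.0917 over the alternatives, and voom gave -1.43 for that change.

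In watered leaves the comparison of OE with WT asks whether these genes differed between the genotypes without drought. With the number of transgenic lines not given, an effect of the microRNA cannot be told apart from one of a line or of transformation. With limma 0 of the 66 genes differed in either direction, 2 stood below 0.05 before adjustment, voom also gave 0, where 0.0985% of all tested genes were higher and 0.0394% lower. Differences ran from -0.61 to 0.81. The receptor with the smallest adjusted p was Potri.011G021332 (-0.60 ± 0.32, adjusted p = 0.636), and the peptide was Potri.013G155500 (0.57 ± 0.26, adjusted p = 0.567). A missed threshold does not show that the groups were alike: the 95% interval for Potri.013G155500 ran from -0.01 to 1.15.

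In drought 10 of the 66 genes were higher and 8 lower in OE than in WT, where 9.19% of all tested genes were higher and 20.2% lower. The higher genes were 6 YODA-described kinases and 4 trihelix factors (both GT-3a genes, a GT-2 and an ASR3 gene). The lower genes were 2 receptors, 2 genes of the bHLH group (a FAMA gene and the SCREAM2-described gene) and 4 trihelix factors, and 0 of the tested peptides differed. Without the filter on low values 1 peptide was higher and 3 receptors were lower, where 6.9% and 12.7% of all genes were. The median difference of all tested genes was -0.24, and with median-of-ratios scaling it was -0.03, and 17 members were higher and 4 lower, where 15.1% and 9.97% of all tested genes were. With that scaling 10 YODA-described genes were higher and 0 lower, and 0 bHLH factors differed. Without WT drought replicate 4, OE drought replicate 5 or OE drought replicate 6 the lower members numbered 4, 3 and 4, where 9.94%, 10.6% and 18.8% of all tested genes were lower. WT drought replicate 6 was the WT library nearest to the OE drought mean in 11 of these 18 genes, replicate 5 in 7 and replicate 4 in 0. These 18 genes were called in the same libraries, and the split over all tested genes was not computed.

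The 4 kinases of the interaction differed most between genotypes in drought among the kinases, by 3.97 ± 0.45 (adjusted p = 0.000219) for Potri.005G139300, 2.67 ± 0.47 (adjusted p = 0.00275) for Potri.007G044800, 2.24 ± 0.36 (adjusted p = 0.00172) for Potri.005G139200 and 1.68 ± 0.28 (adjusted p = 0.00215) for Potri.014G035500. Smaller differences in kinases of the same description were 1.30 ± 0.42 (adjusted p = 0.0364) for Potri.001G042401 and 0.73 ± 0.23 (adjusted p = 0.0345) for Potri.005G135100. The call of Potri.001G042401 ended without the filter on low values (0.0534), with only the groups compared fitted (0.0998), with the replicate block (0.0570), without WT watered library 2 (0.0503), without WT drought library 4 (0.138) or 5 (0.120) and without OE drought library 4 (0.0805) or 5 (0.126). Adjusted p ran from 0.00142 to 0.138 over its alternatives. That of Potri.005G135100 ended with only the groups compared fitted (0.120), without WT drought library 4 (0.0917) or 5 (0.112) and without OE drought library 4 (0.0876), 5 (0.0687) or 6 (0.0744), with adjusted p from 0.00245 to 0.120 over the alternatives.

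Among trihelix genes the differences in drought were 1.89 ± 0.23 (adjusted p = 0.000335) for Potri.016G117300, 1.59 ± 0.15 (adjusted p = 0.000106) for Potri.001G309100, -1.37 ± 0.29 (adjusted p = 0.00630) for Potri.002G068600, -1.28 ± 0.24 (adjusted p = 0.00340) for Potri.006G279100 and 1.14 ± 0.28 (adjusted p = 0.0125) for Potri.003G163000. The last lost its call with only the groups compared fitted (0.0549) and without OE drought library 5 (0.0523). Over all alternatives the adjusted p spanned 0.00609 to 0.0549. Of the others, a GT-1 gene (Potri.010G055000, -0.48 ± 0.16, adjusted p = 0.0421) and an ASIL2 gene (Potri.010G186200, -0.59 ± 0.18, adjusted p = 0.0299) were lower in OE. The GT-1 call ended without the filter on low values (0.0526), with median-of-ratios scaling (0.235), with only the groups compared fitted (0.131), with voom (0.0569), with the replicate block (0.0680), without WT watered library 1 (0.0606), 2 (0.0609) or 3 (0.0585), without WT drought library 4 (0.135) or 5 (0.0753), without OE watered library 1 (0.0571) or 3 (0.0500) and without OE drought library 5 (0.136) or 6 (0.0521), with adjusted p from 0.0384 to 0.235 over the alternatives. The ASIL2 call ended with median-of-ratios scaling (0.0648), with only the groups compared fitted (0.0550), with the replicate block (0.0577), without WT drought library 4 (0.102) and without OE drought library 5 (0.113) or 6 (0.0635), with adjusted p from 0.0191 to 0.113 over the alternatives, where a pseudocount of 0.25 gave -1.06 and voom -1.43. The FAMA gene Potri.017G054500 was lower in OE, at -1.02 ± 0.32 (adjusted p = 0.0343). Its call ended with median-of-ratios scaling (0.0673), with only the groups compared fitted (0.0921), without WT drought library 4 (0.0839) or 5 (0.112) and without OE drought library 4 (0.0602), 5 (0.0866) or 6 (0.0813), with adjusted p from 0.00430 to 0.112 over the alternatives. The estimate was -1.53 with a pseudocount of 0.25 and -1.84 with voom.

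The interaction asks whether drought moved a gene differently in the genotypes, and it passed for 6 genes in the upward and 3 in the downward direction of OE, where 4.54% and 10.2% of all tested genes did. These were the 4 kinases Potri.005G139300, Potri.007G044800, Potri.005G139200 and Potri.014G035500, the trihelix genes Potri.016G117300 and Potri.001G309100 upward, and Potri.002G068600, Potri.006G279100 and the FAMA gene Potri.017G054500 downward. The median interaction of all tested genes was -0.28, and 0.04 with median-of-ratios scaling, where 8 members passed upward and 2 downward, beside 7.9% and 4.05% of all tested genes. Without WT drought replicate 6 the counts were 10 and 7, beside 7.57% and 18.8% of all tested genes. Without WT watered replicate 2 the downward count was 1, beside 3.2%. The tested peptides, receptors and protease gave 0 passing interactions, with the smallest adjusted p among peptides for Potri.013G155500 (-0.80 ± 0.37, adjusted p = 0.157). Without the filter on low values 1 peptide passed upward and 1 receptor downward, where 2.98% and 5.26% of all genes did.

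**Figure D5:**
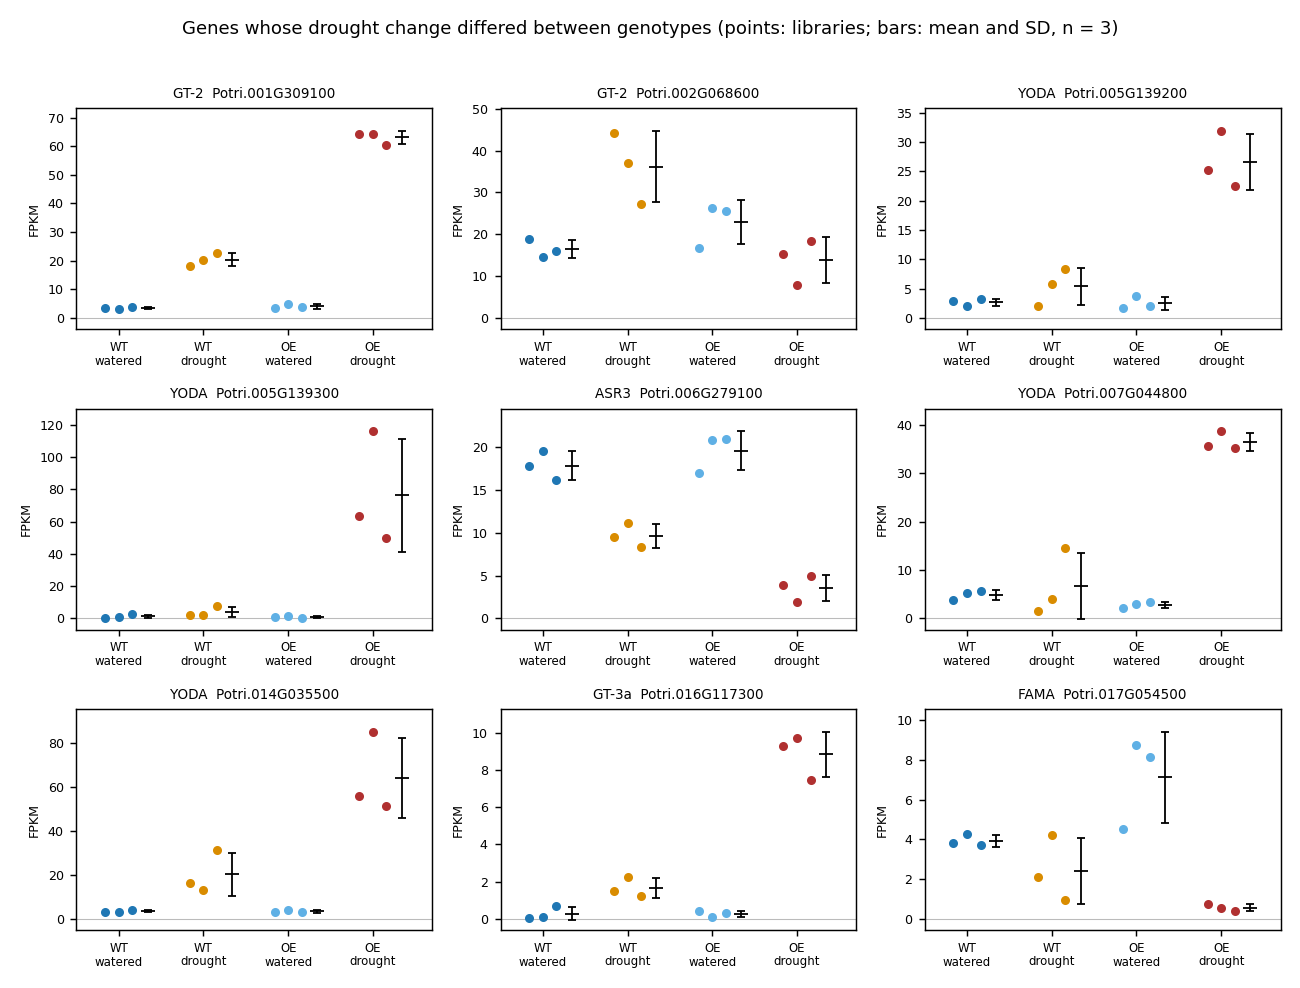
FPKM in each library of the 9 genes whose drought change differed between genotypes, with coloured points for the libraries of each group and a black bar for the mean and SD of 3 libraries. In the 6 genes that passed upward every OE drought library lies above every other library, and Potri.002G068600 is highest in WT drought.

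Partners of the pathway that the description rule did not take in were given by a separate list of 41 genes, of which 32 were tested. In WT drought 18 rose and 3 fell, where 33.9% of all tested genes rose and 21.6% fell. In OE drought 13 rose and 8 fell, where 27.7% rose and 34.9% fell. Mitogen-activated protein kinase 3, which ends the cascade below YODA, is the description of Potri.009G066100, with 41.1, 33.1 and 44.3 FPKM in WT watered, 101, 85.8 and 198 in WT drought, 41.9, 64.2 and 37.4 in OE watered and 197, 187 and 190.1 in OE drought libraries. It rose in both genotypes (1.59 ± 0.29, adjusted p = 0.000773 in WT and 2.02 ± 0.29, adjusted p = 8.81e-05 in OE). Mitogen-activated protein kinase kinase 9 (Potri.015G030700) rose as well, by 1.67 ± 0.39 (adjusted p = 0.00343) in WT and 2.57 ± 0.39 (adjusted p = 0.000126) in OE. Of the coreceptors of the SERK type, Potri.003G166100 rose most (2.58 ± 0.28, adjusted p = 1.83e-05 in WT and 2.77 ± 0.28, adjusted p = 5.44e-06 in OE), and the related BAK1 gene Potri.003G023000 rose by 1.92 ± 0.27 (adjusted p = 0.000143) in WT and 1.95 ± 0.27 (adjusted p = 7.27e-05) in OE. Falling genes of the list included a SERK2 gene (Potri.013G117200, -1.62 ± 0.23, adjusted p = 0.000124 in WT and -1.55 ± 0.23, adjusted p = 9.95e-05 in OE) and a SERK1 gene (Potri.003G166200, -1.80 ± 0.42, adjusted p = 0.00294 in OE and -0.86 ± 0.42, adjusted p = 0.105 in WT), chosen after their values were seen as the largest falls in WT and in OE.

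Lists of other cell types moved in the same libraries, and their part in the changes of the stomatal and trihelix genes was not tested. Beside the counts below, 21.6% of all tested genes fell in WT drought and 34.9% in OE drought. Of 29 tested mesophyll genes 27 fell in WT and 28 in OE drought, led by chlorophyll a-b binding protein 21 (Potri.011G079500, -7.01 ± 0.39, adjusted p = 1.77e-07 in WT and -8.45 ± 0.39, adjusted p = 3.26e-08 in OE). In WT chlorophyll a-b binding protein 6A (Potri.008G041000, -5.65 ± 0.24, adjusted p = 3.09e-08) and in both a Rubisco small chain (Potri.004G100000, -5.30 ± 0.71, adjusted p = 9.04e-05 and -6.86 ± 0.71, adjusted p = 7.05e-06) followed. In OE so did chlorophyll a-b binding protein 40 (Potri.005G239200, -6.79 ± 0.48, adjusted p = 4.36e-07). Of 31 vascular genes 28 and 27 fell, such as a SIEVE ELEMENT OCCLUSION B gene (Potri.008G183200, -4.01 ± 0.32, adjusted p = 1.89e-06 and -4.77 ± 0.32, adjusted p = 2.80e-07). Their summed level went from 226.2 to 575.3 FPKM in WT watered to 59.6 to 92.58 in WT drought libraries, and from 163.5 to 460.6 to 16.07 to 18.9 in OE. In OE drought 15 of the 42 listed vascular genes were at 0 in all 3 libraries, against 1 in OE watered leaves.

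Genes of dividing cells (cyclins and cyclin-dependent kinases of the B type) fell in 20 of 31 cases in WT and 21 in OE and rose in 4 and 2, with a pair described as cyclin-D6-1 in front (Potri.004G032100, -3.63 ± 0.53, adjusted p = 0.000160 and -2.86 ± 0.53, adjusted p = 0.000556, and Potri.019G118600, -2.32 ± 0.32, adjusted p = 0.000124 and -3.10 ± 0.32, adjusted p = 7.72e-06). The largest rise, a choice made after the values were seen, was in a cyclin-D3-1 gene (Potri.014G023000, 1.82 ± 0.35, adjusted p = 0.00114 in WT and 1.63 ± 0.35, adjusted p = 0.00165 in OE). Their summed level was 266 to 317 FPKM in watered and 216.9 to 292.4 in drought libraries of WT, and 248.7 to 381.1 and 173.5 to 192 in those of OE. In OE drought 5 of the 46 genes were at 0 in all 3 libraries. For this list and the next, the shares of all tested genes were 33.9% higher and 21.6% lower in WT drought, and 27.7% and 34.9% in OE drought. In the epidermis and trichome list of 10 tested genes 2 rose and 1 fell in WT, and 3 rose and 7 fell in OE, the wax enzyme 3-ketoacyl-CoA synthase 6 (Potri.010G125300) changing by -1.13 ± 0.36 (adjusted p = 0.0188) in WT and -3.35 ± 0.36 (adjusted p = 9.29e-06) in OE. That list summed to 277.9 to 324.4 FPKM in watered and 216.9 to 245.3 in drought libraries of WT, and to 249.6 to 368.1 and 110.5 to 150 in those of OE. Of the guard cell genes, the malate transporter gene Potri.005G208500 changed by 2.76 ± 0.52 (adjusted p = 0.000946) in WT and -0.39 ± 0.52 (adjusted p = 0.530) in OE, and Potri.001G144300 by -1.28 ± 0.40 (adjusted p = 0.0164) and -2.86 ± 0.40 (adjusted p = 6.57e-05). The kinase HT1 gene Potri.005G213200 rose in both (2.18 ± 0.20, adjusted p = 6.58e-06 and 2.62 ± 0.20, adjusted p = 8.13e-07). The potassium channel gene KAT1 (Potri.004G132200) changed by -1.85 ± 0.23 (adjusted p = 5.28e-05) in WT and 0.15 ± 0.23 (adjusted p = 0.591) in OE, and a KAT3 gene (Potri.018G035500) by 1.62 ± 0.25 (adjusted p = 0.000264) and 2.55 ± 0.25 (adjusted p = 4.96e-06).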

How the data were processed

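Leaf RNA of 12 libraries in 4 groups of 3 was compared. The authors deposited FPKM values with an annotation, and per the submitters' processing notes HISAT2 2.1.0 and Bowtie2 2.2.3 were among the tools. The labels state neither the genome build nor the counting step. Each FPKM value was a whole multiple of the worth of 1 fragment (within 0.02 for all 35747 genes), which gave 9682111 to 12131416 fragments per library.

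Tests used limma 3.58.1 (R 4.3.3) on log2(FPKM + 1), with 4 group means over all 12 libraries, a trended and robust prior, a filter of 1 FPKM in at least 3 libraries and Benjamini-Hochberg adjustment over 25373 genes (threshold 0.05). The fitting steps were checked on simulated data. Means, counts and figures were made with Python 3.11.15, pandas 2.3.3, numpy 2.4.6 and matplotlib 3.10.9. Members, lists and tests were chosen with earlier results of these data known. In each role and comparison up to 4 genes past the threshold with the largest change are named (or the smallest adjusted p where none passed), with every GTL1 and SBT1.2 gene and every peptide, receptor, kinase and bHLH gene that reached 1 FPKM in a library, and up to 3 genes from each other list. Alternatives were a pseudocount of 0.25, no filter, median-of-ratios scaling, only the groups compared, voom on recovered fragments, a replicate block, a log2 change of at least 1, and leaving out each library. No sequences were read, since no reference was used.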

Additional observations from a re-analysis of the deposited data

Results flagged for a closer look

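For 9 genes the change with drought differed between OE and WT by the interaction term (limma, adjusted p under 0.05 over all tested genes), which is what marked them here. Of all tested genes 4.54% passed upward and 10.2% downward. Upward in OE were the YODA-described Potri.005G139300 (4.21, adjusted p = 0.00338), Potri.007G044800 (3.28, adjusted p = 0.0119), Potri.005G139200 (2.35, adjusted p = 0.0154) and Potri.014G035500 (1.69, adjusted p = 0.0209). Also upward were the GT-3a gene Potri.016G117300 (1.88, adjusted p = 0.00614) and the GT-2 gene Potri.001G309100 (1.41, adjusted p = 0.00373). Downward were the GT-2 gene Potri.002G068600 (-1.81, adjusted p = 0.0178), the FAMA gene Potri.017G054500 (-1.70, adjusted p = 0.0316) and the ASR3 gene Potri.006G279100 (-1.41, adjusted p = 0.0211).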

How the results depend on the processing

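Of the 33 calls in WT drought 22 held under every alternative other than the requirement of a log2 change of at least 1, as did 41 of 51 in OE drought, 9 of 18 between genotypes in drought and 4 of 9 for the interaction. No called value changed sign, and the watered genotype comparison gave 0 calls throughout. A log2 change of at least 1 left 10 higher and 6 lower members in WT drought, 13 and 17 in OE drought, and 5 lower in OE against WT in drought. Shares of all tested genes were not computed for that requirement or for calls held under every alternative. For OE against WT in drought, median-of-ratios scaling gave 17 higher and 4 lower, beside 15.1% and 9.97% of all tested genes. Fitting the compared groups alone gave 4 lower, beside 7.18%, and leaving out 1 library gave 3 to 12 lower, beside 9.94% to 24.6%. The main fit had 20.2% of all tested genes lower. For the interaction, voom gave 5 lower, beside 9.21% of all tested genes. Leaving out 1 library gave 5 to 10 higher, beside 2.55% to 7.57%, and 1 to 7 lower, beside 3.2% to 18.8%. With the replicate block 9 members were higher and 5 lower between genotypes in drought, beside 8.01% and 17.7% of all tested genes. For the interaction the block gave 5 and 2, beside 2.87% and 5.29%. Same-numbered libraries of the genotypes did not deviate together (correlations of -0.497 to 0.218 over 6 pairs, 3 of 12 libraries closest to their own number), so the numbers were not taken as pairs, and drought comparisons share no numbers. The causes of these shifts were not tested. Depth limits genes near 0, where the size of a log2 change follows the pseudocount.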

Other observations

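ICE1 is another name of SCREAM, and 2 genes carry it as "Transcription factor ICE1", outside the description rule and chosen after their values were seen. Potri.012G106000 stood at 14.5, 16.3 and 13.2 FPKM in WT watered, 11.6, 12.4 and 13.4 in WT drought, 14.1, 12.2 and 12 in OE watered and 22.7, 19.7 and 21.6 in OE drought libraries. The 3 OE drought libraries were the highest of the 12, with a rise of 0.70 ± 0.14 (adjusted p = 0.000789) in OE and a change of -0.22 ± 0.14 (adjusted p = 0.193) in WT, and the difference of the changes was 0.92 ± 0.19 (adjusted p = 0.0134) by limma. Potri.015G105200 stood at 9.70, 13.8 and 12.1 FPKM in WT watered, 4.38, 4.48 and 4.49 in WT drought, 9.07, 7.30 and 8.34 in OE watered and 1.99, 1.51 and 2.06 in OE drought libraries. It fell without overlap in both genotypes, with -1.23 ± 0.17 (adjusted p = 9.20e-05) in WT and -1.69 ± 0.17 (adjusted p = 4.32e-06) in OE.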
